A study of Mus musculus with 8 samples.

Results

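The nuclear genes for the subunits of oxidative phosphorylation were followed by RNA sequencing in mouse B cells before and after 2 steps of stimulation. They were the protein-coding genes whose symbols begin with Nduf followed by a, b, c, s or v and a digit (complex I), with Uqcr (complex III), with Cox4 to Cox8 (complex IV) or with Atp5 (complex V), and the genes Sdha to Sdhd (complex II). This rule took 84 of the 37583 gene identifiers in the files: 37 in complex I, 4 in complex II, 8 in complex III, 18 in complex IV and 17 in complex V. The 84 genes lay on 19 chromosomes, with at most 8 on any one of them.

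All B cells came from spleens of C57BL/6 (B6) mice, and 8 libraries were made. The TLR group, labelled Bregs-TLR, had 2 libraries of cells kept for 3 days with CpG ODN1668, an oligonucleotide ligand of the receptor TLR9. Over the final 5 h these cells also had LPS, which TLR4 senses, PMA, which switches on protein kinase C, and ionomycin, which lets calcium into cells. The CpG group, labelled Bregs-CpG, had 3 libraries of cells kept for 3 days with the same oligonucleotide. Another 3 libraries were of naive B cells. LPS, PMA and ionomycin were added together, so their separate effects cannot be told apart. No culture time is given for the naive cells, and no group was cultured without CpG. In comparisons with naive cells, effects of CpG and of time in culture therefore cannot be told apart. The age and number of the mice are not given, nor whether replicates are different animals or cultures. P-values therefore reflect the spread among the 8 libraries only, which may be technical.

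Oxidative phosphorylation passes electrons from NADH (complex I) and succinate (complex II) through coenzyme Q to complex III, and from there through cytochrome c to complex IV, which reduces oxygen to water. Complexes I, III and IV pump protons across the inner mitochondrial membrane, and complex V, the ATP synthase, uses their return to make ATP. Complexes I, III, IV and V join nuclear-encoded proteins with proteins encoded in mitochondrial DNA, whereas complex II is nuclear alone. Resting B cells are small, and activated B cells are known to grow, divide and respire more. The 13 protein genes of mitochondrial DNA were not analysed here.

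Levels are given as CPM, a gene's count divided by its library's size, with library sizes scaled by the trimmed mean of M values (TMM). Gene totals ran from 15804311 to 20069272 counts per library, and 1 count was worth 0.0498 to 0.0633 CPM. Replicate 1 of each group carried another library prefix than the rest, whose meaning is not given. In those 3 libraries 37.5% to 50.2% of reads had several alignments, against 14.7% to 21.5% in the other 5. Within each prefix this share also rose from naive to CpG to TLR libraries. It was 37.5%, 47.15% and 50.2% for replicate 1, and 14.7% to 15.1%, 18.1% to 19.95% and 21.5% for the rest. Reads in no gene made up 13.15% to 15.03% in naive, 9.61% to 10.57% in CpG and 7.84% to 8.46% in TLR libraries. The part of these shares in the results was not tested. The B cell genes Cd79b and Ms4a1 were present in every library. The 6 B cell markers summed to 2555 and 2728 CPM in TLR, 8507 to 12760 CPM in CpG and 10020 to 10690 CPM in naive libraries, and all 6 were called lower in TLR than in either other group. All 10 macrophage and monocyte markers were called lower in both stimulated groups than in naive cells, and they summed to 12.7 and 18.2 CPM in TLR, 17.2 to 37.4 CPM in CpG and 166.6 to 1283 CPM in naive libraries, with naive replicate 1 the highest. All 7 natural killer cell markers were likewise lower, and they summed to 1.36 and 1.70 CPM in TLR, 1.74 to 2.99 CPM in CpG and 16.3 to 75.4 CPM in naive libraries. Of 8 T cell markers, 8 were lower in TLR and 7 in CpG than in naive cells, and they summed to 22.7 and 24.1 CPM in TLR, 40.8 to 67.6 CPM in CpG and 57.5 to 77.3 CPM in naive libraries. Most of these sums was Lck, which was not called in CpG against naive. Lck had 21.9 and 22.5 CPM in TLR, 40.3 to 66.8 CPM in CpG and 51.9 to 57.6 CPM in naive libraries. Cd3e, a defining T cell gene, had no count in both TLR libraries and in 2 of the 3 CpG libraries. Of 4 tested erythroid markers, 3 were lower in both stimulated groups than in naive cells, and the 7 listed summed to 34.2 and 36.6 CPM in TLR, 3.48 to 12.1 CPM in CpG and 4.66 to 55.1 CPM in naive libraries. The other one, the globin gene Hbb-bt, made up 33.3 and 36.4 CPM of the TLR sums and was higher in TLR than in naive cells (log2 2.77 ± 0.68, edgeR adjusted p = 0.00577) and than in CpG cells (log2 2.28 ± 0.67, edgeR adjusted p = 0.0234). Of 5 dendritic cell markers, Clec9a and Siglech were lower in both stimulated groups than in naive cells, Flt3 was lower in TLR alone and Zbtb46 in CpG alone. In TLR relative to CpG cells Zbtb46 was called higher and Flt3 lower. These markers summed to 3.11 and 4.96 CPM in TLR, 11.5 to 40.4 CPM in CpG and 17.2 to 36.7 CPM in naive libraries. Flt3 made up 9.03 to 38.7 CPM of the CpG sums and 7.36 to 14.0 CPM of the naive sums. The part of these other cells in the results was not tested, and in RNA from whole populations fewer cells of a type and less RNA per cell cannot be told apart.

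More subunit genes rose than fell in both stimulated groups relative to naive cells. Of the 84 genes, 79 had enough counts to be tested with edgeR's quasi-likelihood test, and a gene was called at an adjusted p below 0.05. Between TLR and naive libraries, 50 of the 79 rose (63.3%) and 0 fell, where 31.6% of all 13964 tested genes rose and 29.7% fell. The 50 calls compare with 61.2% of all tested genes called in either direction. The log2 change was above 0 for 73 members (50.4% of all tested genes) and below 0 for 6 (49.6%). At an unadjusted p below 0.05, 1 member was lower, and DESeq2 called 1 lower at its adjusted p. The median log2 change of the 79 genes was 0.72, beside 0.01 over all tested genes. Both TLR libraries lay above all naive libraries for 63 members (39.8% of all tested genes) and below them for 4 members (38.3%).

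Between CpG and naive libraries, 38 subunit genes rose (48.1%) and 2 fell, Cox7c and Atp5l, where 23.5% of all tested genes rose and 21.9% fell. The log2 change was above 0 for 69 members (50.7% of all tested genes). The median log2 change was 0.48, beside 0.01 over all tested genes. All CpG libraries lay above all naive libraries for 41 members (28.3% of all tested genes) and below them for 2 (27.7%).

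Between TLR and CpG libraries, 21 members rose (26.6%) and 4 fell, Ndufa6, Ndufb11, Cox7a2l and Cox6b2, where 19.0% of all tested genes rose and 19.8% fell. The log2 change was above 0 for 60 members (48.6% of all tested genes). The share that rose was nearer to that of all genes here than in the comparisons with naive cells. The median log2 change was 0.30, beside -0.02 over all tested genes. TLR libraries lay above all CpG libraries for 37 members (29.2% of all tested genes) and below them for 6 (30.1%).

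**Figure D1:**
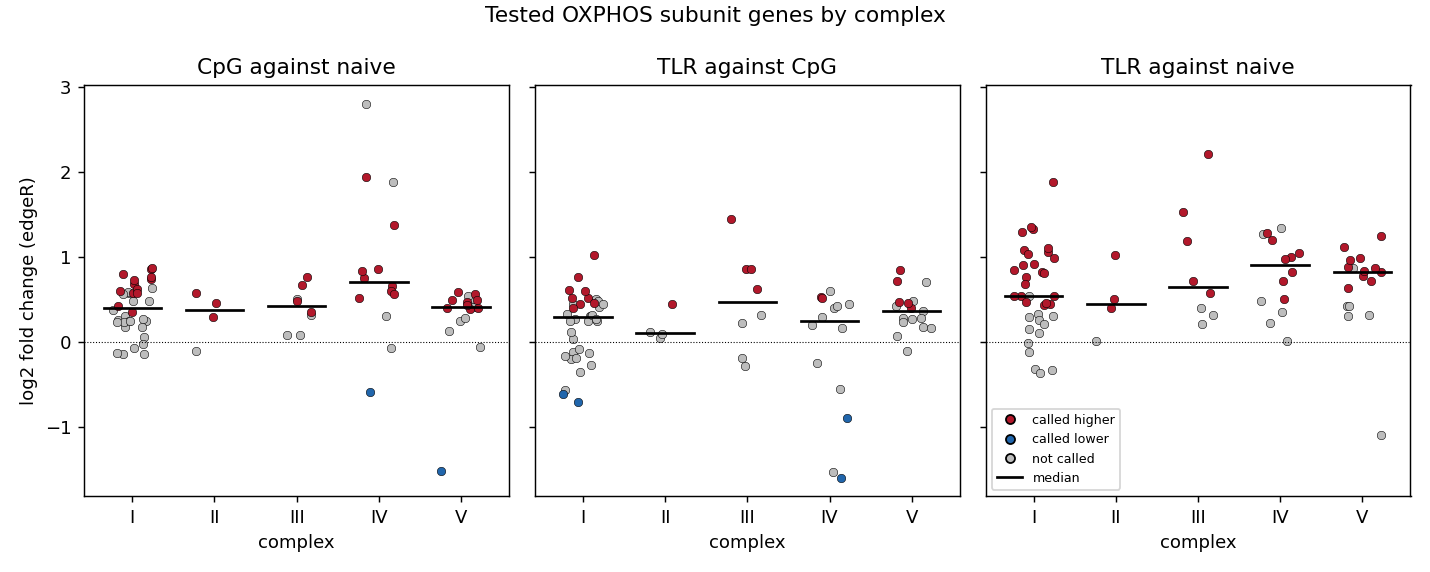
Log2 fold change (y axis) of the 79 tested subunit genes (points) by complex (x axis), in 1 panel per comparison, with the median as a line. Red points were called higher, blue lower and grey not called, and most points lie above 0 in each panel.

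The calls held unevenly when single libraries were left out. Of the 50 calls of TLR against naive, 36 held without each of the 8 libraries in turn, as did 26 of the 40 calls of CpG against naive. Of the 25 calls of TLR against CpG, 6 held: Uqcrq, Uqcrc1, Ndufa12, Atp5b and Atp5g3 were higher and Cox6b2 lower. The number of members higher in TLR than in CpG was 8 without TLR replicate 1, 7 without TLR replicate 2, 12 without CpG replicate 3 and 11 in a fit of these 2 groups alone. The number lower was 1 without TLR replicate 2 and 9 without CpG replicate 3. CpG replicate 3 was the lowest CpG library for 64 of the 79 genes and the highest for 1. Replicate 1 was the highest library of its group for 50 genes in TLR, 48 in CpG and 49 in naive cells. Within the libraries of the replicate 1 prefix and within the rest, the median log2 change was 0.66 and 0.70 for TLR against naive, 0.51 and 0.39 for CpG against naive and 0.19 and 0.35 for TLR against CpG. Each of the 50, 40 and 25 called genes of these comparisons had the same sign within both prefixes. Because the genes were called on these same 8 libraries, such agreement was largely set in advance and adds no separate support.

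**Figure D2:**
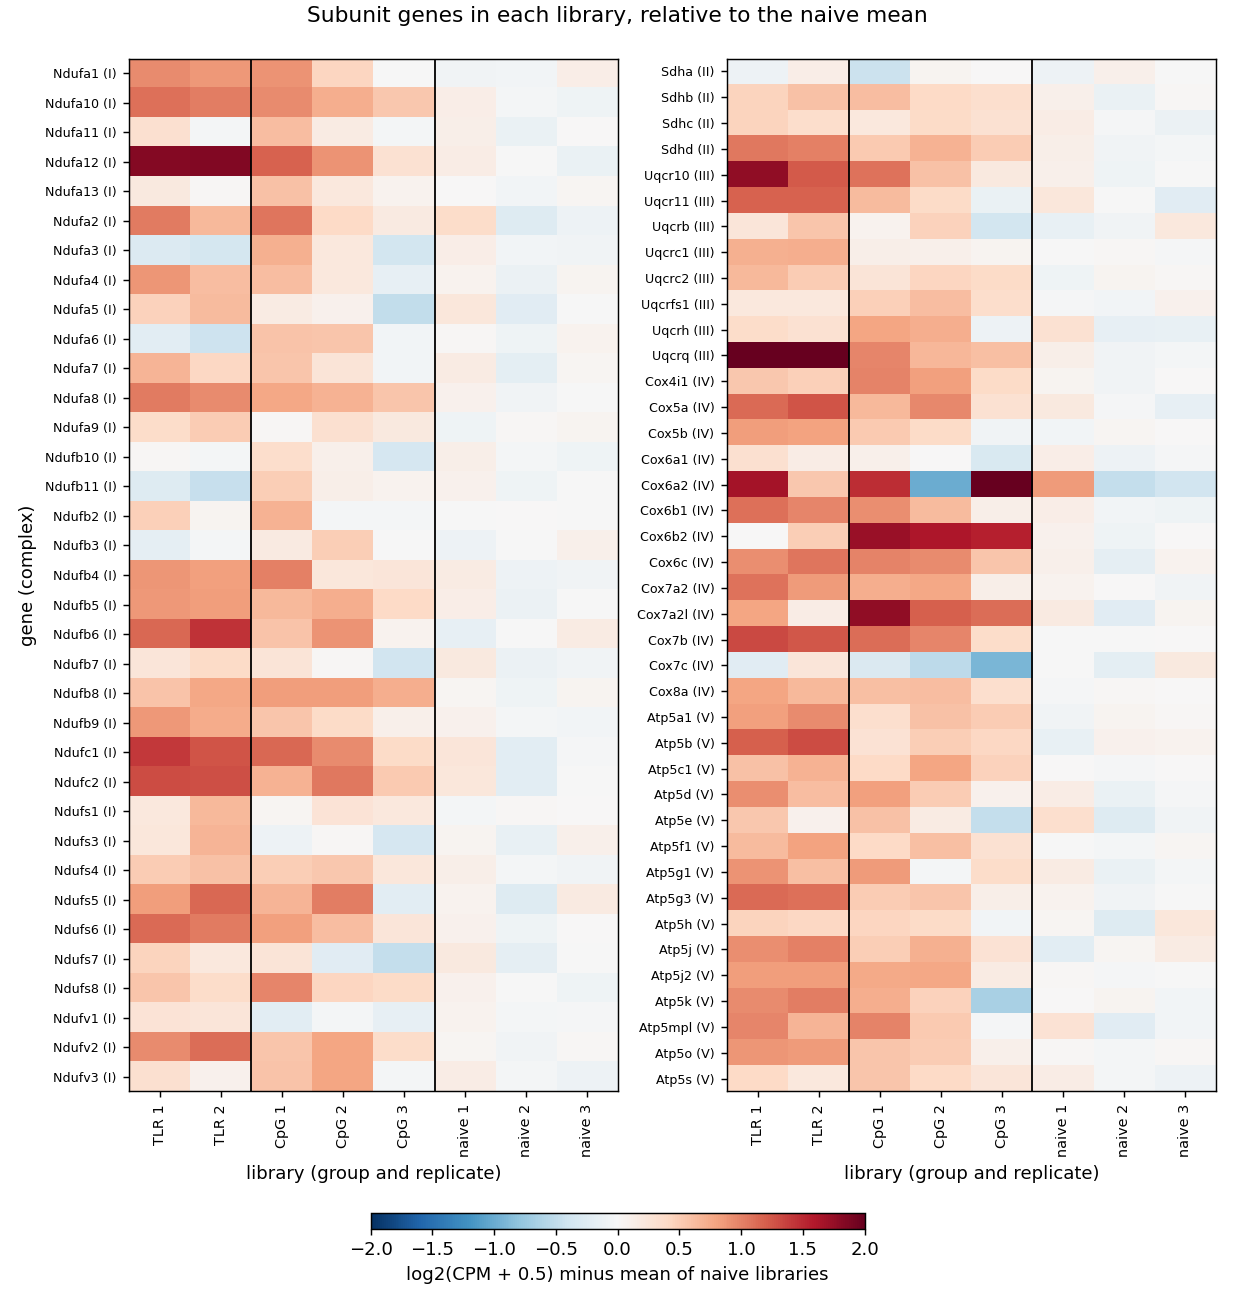
Heat map of 75 of the tested subunit genes averaging 2 CPM or more (rows, by complex), in the 8 libraries (columns), coloured by log2(CPM + 0.5) minus the mean of the 3 naive libraries, with the colour scale ending at 2 in each direction. Most rows are red in the TLR columns, and CpG replicate 3 is the palest CpG column for most rows.

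By the direction of their calls, the genes fell into a few classes. In all 3 comparisons 14 genes rose: Ndufa12, Ndufb9, Ndufc2, Ndufs6 and Ndufv2 of complex I, Sdhd of complex II, Uqcrq and Uqcr10 of complex III, Cox5a of complex IV, and Atp5a1, Atp5b, Atp5g3, Atp5j and Atp5o of complex V. Among these, Uqcrq and Ndufa12 kept all 3 calls when any 1 library was left out. Another 21 genes rose over naive cells in both stimulated groups with no call between TLR and CpG, among them Cox4i1, Sdhb and Ndufb8. A further 10 were called only as higher in TLR than in naive cells, and 5 rose in TLR over both other groups, Uqcrc1, Uqcr11, Cox5b, Ndufb6 and Ndufs3. Cox7a2l and Cox6b2 rose in CpG over naive cells and fell in TLR relative to CpG cells. No comparison was called for 20 genes.

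Because many members moved the same way, their promoters were read for the motifs of factors known to act on respiratory genes. The RefSeq table (build GRCm38.p6) matched 66 of the 84 members with 71 promoters of 300 bases, from 250 bases before to 50 bases after a transcription start. Promoters of 4 genes whose calls of TLR against naive held without any 1 library are shown; 3 were chosen after matches were seen, and Ndufa12 because it had the largest change of complex I. Capitals mark matches on either strand to the letters bound by NRF1 (GCGCATG) or by the ETS factor GABP (CCGGAAG).
Uqcrc1 promoter, chr9:108936398-108936697, plus strand: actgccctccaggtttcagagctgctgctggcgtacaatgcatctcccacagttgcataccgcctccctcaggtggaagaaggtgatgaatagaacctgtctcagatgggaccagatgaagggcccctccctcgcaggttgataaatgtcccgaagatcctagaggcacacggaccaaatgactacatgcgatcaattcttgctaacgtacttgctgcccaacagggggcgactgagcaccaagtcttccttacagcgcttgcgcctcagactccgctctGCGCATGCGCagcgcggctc
Ndufa8 promoter, chr2:36049289-36049588, minus strand: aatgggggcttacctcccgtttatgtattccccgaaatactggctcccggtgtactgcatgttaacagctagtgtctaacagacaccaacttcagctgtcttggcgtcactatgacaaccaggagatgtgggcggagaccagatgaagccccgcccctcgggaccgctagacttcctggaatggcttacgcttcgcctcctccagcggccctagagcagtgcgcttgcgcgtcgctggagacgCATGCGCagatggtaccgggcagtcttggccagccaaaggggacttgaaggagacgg
Sdhd promoter, chr9:50603800-50604099, minus strand: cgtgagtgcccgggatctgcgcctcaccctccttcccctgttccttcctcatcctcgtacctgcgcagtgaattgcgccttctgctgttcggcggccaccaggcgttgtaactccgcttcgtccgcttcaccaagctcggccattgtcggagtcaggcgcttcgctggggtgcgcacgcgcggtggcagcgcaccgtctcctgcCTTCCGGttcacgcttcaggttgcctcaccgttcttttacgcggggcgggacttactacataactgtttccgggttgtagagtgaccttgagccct
Ndufa12 promoter, chr10:94198785-94199084, plus strand: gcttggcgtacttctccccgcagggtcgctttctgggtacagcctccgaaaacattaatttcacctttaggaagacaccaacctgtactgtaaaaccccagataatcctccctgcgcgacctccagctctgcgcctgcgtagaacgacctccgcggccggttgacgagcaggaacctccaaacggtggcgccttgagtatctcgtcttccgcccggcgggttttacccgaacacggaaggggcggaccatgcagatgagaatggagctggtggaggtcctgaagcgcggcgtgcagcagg
The Uqcrc1 window held 2 overlapping NRF1 matches on opposite strands, beginning 30 and 33 bases after the start. The NRF1 match of Ndufa8 began 7 bases before the start, and the ETS match of Sdhd 46 bases before it. The Ndufa12 window held none. The NRF1 letters occurred in 18.3% of member promoters, in 6.82% of the 12675 promoters of tested genes and in 3.91% of all 32851 promoters. The ETS letters occurred in 22.5%, 17.4% and 8.86% of the same sets, and the letters AAGATGG, bound by YY1, in 14.1%, 7.19% and 6.34%. A match is a run of letters, and binding was not measured.

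The summed level of the 84 genes was 10730 and 10640 CPM in TLR, 9168, 9016 and 7560 CPM in CpG and 6456, 6187 and 6349 CPM in naive libraries. The 3 groups did not overlap. Complex V made up the largest part, with 4766 ± 110.2 CPM in TLR, 3295 ± 249 CPM in CpG and 2441 ± 47.1 CPM in naive cells (SD, n = 2, 3 and 3), again without overlap. Complex III had 1163 ± 82.9 CPM in TLR, 871 ± 102 CPM in CpG and 664 ± 22.3 CPM in naive cells. Complex I had 2625 ± 47.4 CPM in TLR, 2358 ± 363 CPM in CpG and 1794 ± 97.7 CPM in naive cells, and its TLR and CpG libraries overlapped. In complex IV too, TLR libraries at 1419 ± 89.3 CPM overlapped CpG libraries at 1423 ± 269.6 CPM, and both lay above naive libraries at 856 ± 49.4 CPM. Without Cox7a2l and Cox4i1, a choice made after seeing the data, its other genes summed to 920.7 ± 32.1 CPM in TLR, 728 ± 124 CPM in CpG and 505 ± 25.02 CPM in naive cells, and the groups did not overlap. Both left-out genes averaged higher in CpG than in TLR cells, so leaving them out by itself favoured TLR over CpG. Complex II had the smallest ratio of TLR to naive, 1.24, with 713 ± 42.7 CPM in TLR, 634 ± 54.7 CPM in CpG and 576 ± 11.6 CPM in naive cells. Atp5a1 and Atp5b alone made up 27.0% and 29.5% of the members' sum in TLR, 19.2% to 25.9% in CpG and 20.3% to 24.0% in naive libraries.

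**Figure D3:**
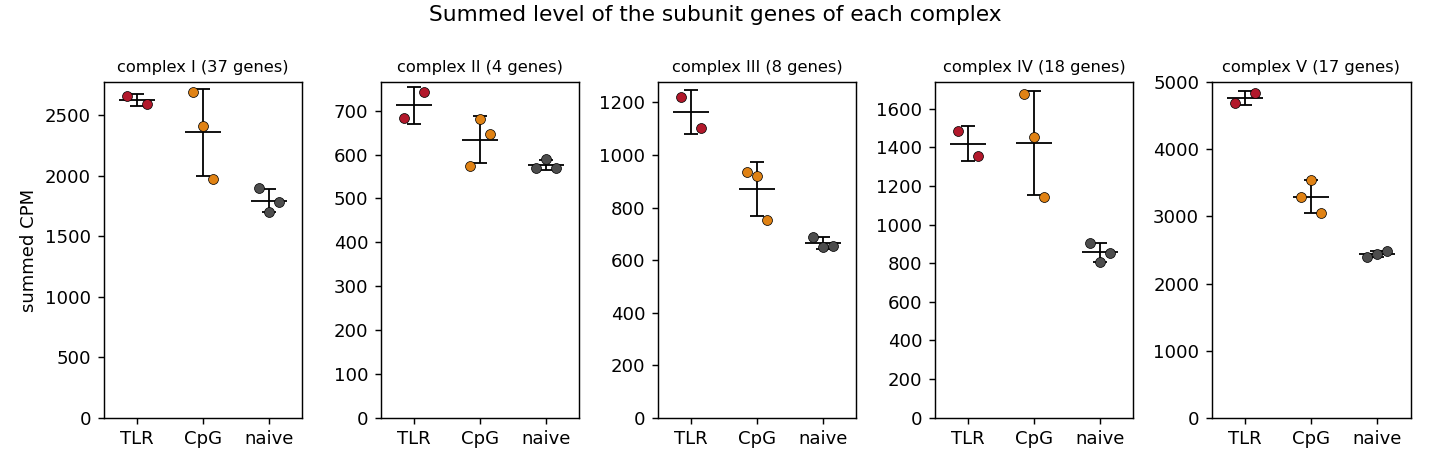
Summed CPM (y axis, from 0) of the subunit genes of each complex in every library (points), with the mean and SD of each group, TLR, CpG and naive from left to right. TLR libraries overlap CpG libraries for complexes I and IV and lie above them for complexes II, III and V, for complex II by a narrow gap (682.4 against 681.9 CPM).

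Complex I, the NADH dehydrogenase, had 36 tested genes. In TLR relative to naive cells 23 rose and 0 fell, and in CpG relative to naive cells 13 rose and 0 fell. In TLR relative to CpG cells 9 rose and 2 fell. Of all tested genes, 31.6%, 23.5% and 19.0% rose and 29.7%, 21.9% and 19.8% fell in these comparisons. The share of complex I that rose was nearest to that of all tested genes in TLR against CpG. The log2 medians of complex I were 0.55, 0.40 and 0.30. Ndufa12, an accessory subunit of the arm that reaches into the matrix, had 35.7 and 36.1 CPM in TLR, 22.4, 18.5 and 12.1 CPM in CpG and 10.7, 9.57 and 8.77 CPM in naive libraries. The 3 groups did not overlap. Its log2 change was 1.89 ± 0.23 (SE) for TLR against naive (edgeR adjusted p = 8.56e-05), 1.02 ± 0.23 for TLR against CpG (edgeR adjusted p = 0.00629) and 0.86 ± 0.22 for CpG against naive (edgeR adjusted p = 0.00914).

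Among the subunits that form the conserved catalytic core of complex I, Ndufs1, Ndufs3, Ndufs8 and Ndufv2 rose in TLR relative to naive cells, and Ndufs7 and Ndufv1 were not called. Ndufv1, which holds the flavin where NADH is oxidised, had 111 and 109 CPM in TLR, 79.3, 89.1 and 81.6 CPM in CpG and 95.9, 88.8 and 90.2 CPM in naive libraries. TLR libraries stood above both other groups, with an edgeR adjusted p of 0.0503 against naive. Its log2 change against CpG was 0.40 ± 0.10 (edgeR adjusted p = 0.0130, and 0.0622 to 0.0781 with one of TLR replicates 1 and 2 left out). Ndufs1, the largest iron-sulfur subunit, had 111 and 150.1 CPM in TLR, 98.4, 115 and 111 CPM in CpG and 93.2, 97.4 and 96.4 CPM in naive libraries, and TLR libraries overlapped CpG libraries but not naive ones. Its rise over naive cells, 0.45 ± 0.14, rested largely on TLR replicate 2 (edgeR adjusted p = 0.0188, and 0.0514 to 0.254 with one of TLR replicate 2 and naive replicates 1 and 3 left out). Further core calls over naive that were lost without single libraries were those of Ndufs3 (edgeR adjusted p = 0.0340, and 0.0552 to 0.351 with one of TLR replicate 2 and naive replicates 1, 2 and 3 left out) and Ndufs8 (edgeR adjusted p = 0.0419, and 0.0616 to 0.197 with one of TLR replicates 1 and 2 and naive replicates 1, 2 and 3 left out).

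Among the accessory subunits, Ndufb8 had 60.7 and 70.4 CPM in TLR, 73.3, 73.03 and 67.6 CPM in CpG and 41.7, 38.4 and 42.3 CPM in naive libraries. TLR and CpG libraries overlapped, and both lay above naive libraries. It rose by 0.81 ± 0.11 in CpG (edgeR adjusted p = 0.000261) and by 0.68 ± 0.12 in TLR over naive cells (edgeR adjusted p = 0.000657). Ndufc1 had 37.9 and 33.7 CPM in TLR, 31.3, 27.2 and 18.3 CPM in CpG and 16.5, 11.9 and 13.6 CPM in naive libraries, with no overlap between groups. It rose by 1.36 ± 0.23 in TLR over naive cells (edgeR adjusted p = 0.000584). Ndufb6 had 30.6 and 37.7 CPM in TLR, 20.2, 25.5 and 14.2 CPM in CpG and 12.03, 13.5 and 15.1 CPM in naive libraries. The log2 change was 1.34 ± 0.23 for TLR against naive (edgeR adjusted p = 0.000736) and 0.77 ± 0.23 for TLR against CpG (edgeR adjusted p = 0.0243, and 0.172 with TLR replicate 2 left out). Ndufa5 was called higher in TLR than in CpG cells, by 0.61 ± 0.22 (edgeR adjusted p = 0.0489, and 0.0558 to 0.217 with one of TLR replicates 1 and 2, CpG replicates 2 and 3 and naive replicates 2 and 3 left out).

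Ndufa6 and Ndufb11 fell in TLR relative to CpG cells. Ndufa6, a small subunit of the LYR family, had 56.4 and 48.9 CPM in TLR, 97.6, 96.5 and 62.9 CPM in CpG and 66.8, 61.6 and 68.6 CPM in naive libraries. Its log2 change for TLR against CpG was -0.70 ± 0.19 (edgeR adjusted p = 0.0146, and 0.109 with TLR replicate 2 left out). Ndufb11, a membrane-arm subunit encoded on the X chromosome, had 58.8 and 51.3 CPM in TLR, 99.8, 77.04 and 74.01 CPM in CpG and 75.1, 66.6 and 70.6 CPM in naive libraries. The log2 change for TLR against CpG was -0.60 ± 0.15 (edgeR adjusted p = 0.0108, and 0.0928 with TLR replicate 2 left out). For both genes the TLR libraries lay below every CpG and every naive library, though neither was called against naive (edgeR adjusted p = 0.161 and 0.0587).

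The 4 genes of complex II did not move together. Of these, 3 rose in TLR over naive, 3 in CpG over naive and 1 in TLR over CpG cells. In the same comparisons 31.6%, 23.5% and 19.0% of all tested genes rose, and 4 genes are too few to give a firm share. Sdha, the flavoprotein that oxidises succinate, had 323 and 382 CPM in TLR, 258, 362 and 349.9 CPM in CpG and 324, 374 and 347 CPM in naive libraries. All 3 groups overlapped, and its log2 change was 0.02 ± 0.17 for TLR against naive, 0.12 ± 0.17 for TLR against CpG and -0.11 ± 0.15 for CpG against naive, none of them called. Sdhb, the iron-sulfur subunit, had 122 and 134 CPM in TLR, 138, 119 and 114 CPM in CpG and 96.05, 82.1 and 91.7 CPM in naive libraries. Its TLR and CpG libraries overlapped above the naive ones. It rose by 0.51 ± 0.12 in TLR (edgeR adjusted p = 0.00540) and 0.46 ± 0.11 in CpG over naive cells (edgeR adjusted p = 0.00865).

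Sdhd, a membrane anchor of complex II whose promoter is shown above, had 145 and 140.4 CPM in TLR, 101, 114 and 99.9 CPM in CpG and 75.4, 66.3 and 68.02 CPM in naive libraries, with no overlap between any groups. It rose by 1.03 ± 0.11 in TLR over naive (edgeR adjusted p = 3.37e-05), by 0.45 ± 0.11 in TLR over CpG (edgeR adjusted p = 0.0105, and 0.0703 with TLR replicate 1 left out) and by 0.58 ± 0.10 in CpG over naive cells (edgeR adjusted p = 0.00133). Sdhc, the other anchor, had 91.9 and 85.8 CPM in TLR, 77.7, 87.3 and 82.96 CPM in CpG and 74.2, 66.1 and 61.8 CPM in naive libraries. TLR and CpG overlapped, and both lay above naive. It rose by 0.40 ± 0.12 in TLR over naive cells (edgeR adjusted p = 0.0140, and 0.0512 to 0.0886 with one of TLR replicate 1 and naive replicates 2 and 3 left out) and by 0.29 ± 0.11 in CpG over naive cells (edgeR adjusted p = 0.0446, and 0.0556 to 0.191 with one of TLR replicates 1 and 2, CpG replicates 2 and 3 and naive replicates 2 and 3 left out).

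**Figure D4:**
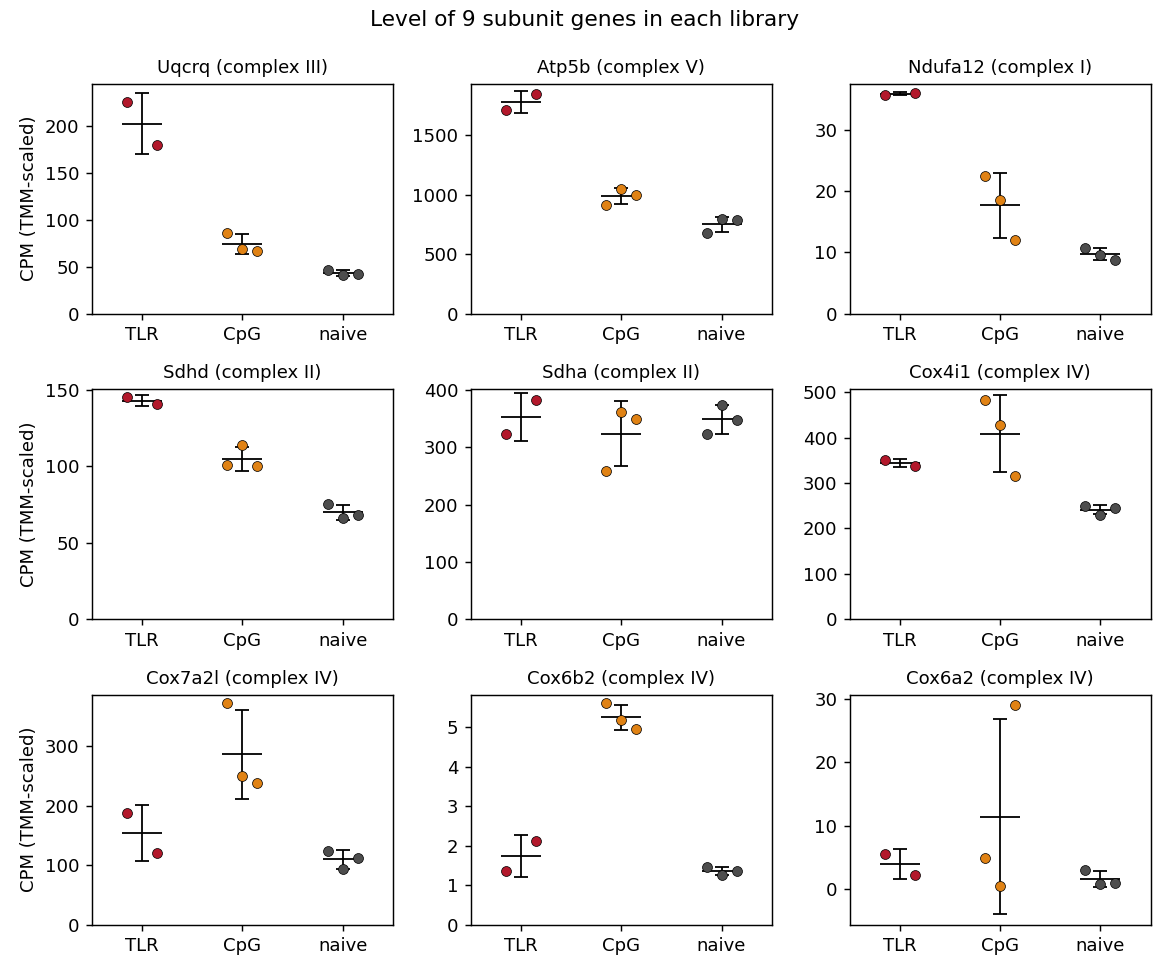
CPM (y axes) of 9 subunit genes in each library (points), TLR, CpG and naive from left to right, with the mean and SD of each group. Uqcrq, Atp5b, Ndufa12 and Sdhd are highest in TLR and lowest in naive libraries, Sdha does not separate the groups, Cox7a2l and Cox6b2 are highest in CpG, and Cox6a2 has 1 CpG library at 29.0 CPM.

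Complex III, which passes electrons from coenzyme Q to cytochrome c, had 8 tested genes, of which 5 rose in TLR over naive, 4 in CpG over naive and 4 in TLR over CpG cells, and 0 fell. Of all tested genes, 31.6%, 23.5% and 19.0% rose and 29.7%, 21.9% and 19.8% fell in these comparisons. Complex III held the largest change called among the members. Uqcrq, a small subunit, had 226 and 179.9 CPM in TLR, 86.2, 69.6 and 66.7 CPM in CpG and 47.1, 41.3 and 42.5 CPM in naive libraries. The 3 groups were fully apart. Its level in TLR was 4.65-fold that in naive cells (log2 2.22 ± 0.15, edgeR adjusted p = 2.06e-06), and its log2 change was 1.45 ± 0.15 for TLR against CpG (edgeR adjusted p = 6.54e-05) and 0.76 ± 0.14 for CpG against naive (edgeR adjusted p = 0.00154). Uqcr10, another small subunit, had 146 and 101 CPM in TLR, 90.8, 64.2 and 48.7 CPM in CpG and 45.8, 39.9 and 42.1 CPM in naive libraries. It rose by 1.53 ± 0.24 in TLR over naive (edgeR adjusted p = 0.000370), by 0.86 ± 0.24 in TLR over CpG (edgeR adjusted p = 0.0169, and 0.176 with TLR replicate 1 left out) and by 0.67 ± 0.22 in CpG over naive cells (edgeR adjusted p = 0.0306, and 0.0539 to 0.0940 with one of CpG replicate 1 and naive replicates 1, 2 and 3 left out).

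Uqcrc1, a core protein of complex III, had 277 and 277 CPM in TLR, 182, 180.2 and 175 CPM in CpG and 168, 171 and 166 CPM in naive libraries. TLR libraries stood far above the other 6, whose groups lay close together. On the log2 scale the difference was 0.63 ± 0.10 for TLR against CpG (edgeR adjusted p = 0.000860) and 0.09 ± 0.09 for CpG against naive, which was not called. Uqcrfs1, the Rieske iron-sulfur protein, had 105 and 105 CPM in TLR, 127, 139.6 and 116 CPM in CpG and 89.1, 87.6 and 96.1 CPM in naive libraries, highest in CpG libraries. It rose by 0.49 ± 0.10 in CpG over naive cells (edgeR adjusted p = 0.00364), and the other comparisons were not called. Uqcr11 had 39.1 and 39.2 CPM in TLR, 26.7, 22.3 and 15.4 CPM in CpG and 20.1, 16.9 and 14.5 CPM in naive libraries. It rose by 1.19 ± 0.22 in TLR over naive (edgeR adjusted p = 0.00119) and by 0.87 ± 0.22 in TLR over CpG cells (edgeR adjusted p = 0.0121, and 0.0587 to 0.0596 with one of TLR replicates 1 and 2 left out). Cyc1, the haem-bearing cytochrome c1 of the same complex, lies outside the symbol rule. It had 214 and 195 CPM in TLR, 138, 117 and 107 CPM in CpG and 96.3, 104 and 108 CPM in naive libraries. It rose by 0.99 ± 0.13 in TLR over naive (edgeR adjusted p = 0.000120) and by 0.76 ± 0.13 in TLR over CpG cells (edgeR adjusted p = 0.00135).

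Complex IV, cytochrome c oxidase, had 14 tested genes, of which 8 rose and 0 fell in TLR against naive, 9 rose and 1 fell in CpG against naive, and 2 rose and 2 fell in TLR against CpG. Against naive, 57.1% rose in TLR and 64.3% in CpG, beside 31.6% and 23.5% of all tested genes. In TLR against CpG 14.3% rose and 14.3% fell, below the 19.0% and 19.8% of all tested genes. Several subunits of complex IV have a form used in most tissues and another known from muscle, testis or lung. Cox4i1, the widely used form of subunit 4, had 351 and 337 CPM in TLR, 483, 427 and 316 CPM in CpG and 250.2, 230.1 and 244 CPM in naive libraries. TLR and CpG libraries overlapped above naive. It rose by 0.76 ± 0.15 in CpG (edgeR adjusted p = 0.00289) and by 0.51 ± 0.17 in TLR over naive cells (edgeR adjusted p = 0.0226, and 0.0570 to 0.0918 with one of TLR replicates 1 and 2 and naive replicates 2 and 3 left out). Its exons share bases with Emc8 on the opposite strand, and since counting ignored strand the reads there cannot be told apart. The lung form Cox4i2 had at most 0.312 CPM and was not tested.

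Cox5a had 76.4 and 83.1 CPM in TLR, 54.3, 67.4 and 42.95 CPM in CpG and 39.5, 33.8 and 30.8 CPM in naive libraries, without overlap. It rose by 1.20 ± 0.18 in TLR over naive (edgeR adjusted p = 0.000330), by 0.66 ± 0.17 in CpG over naive (edgeR adjusted p = 0.00988) and by 0.54 ± 0.18 in TLR over CpG cells (edgeR adjusted p = 0.0414, and 0.0509 to 0.189 with one of TLR replicates 1 and 2, CpG replicates 1 and 3 and naive replicates 2 and 3 left out). Cox5b, which binds zinc, had 52.4 and 51.1 CPM in TLR, 41.99, 38.3 and 27.8 CPM in CpG and 28.1, 30.1 and 29.2 CPM in naive libraries. It rose by 0.83 ± 0.17 in TLR over naive (edgeR adjusted p = 0.00180) and by 0.52 ± 0.17 in TLR over CpG cells (edgeR adjusted p = 0.0319, and 0.0511 to 0.134 with one of TLR replicates 1 and 2 and naive replicates 2 and 3 left out). Cox7b had 133 and 126 CPM in TLR, 116, 104 and 68.4 CPM in CpG and 52.8, 52.7 and 53.4 CPM in naive libraries, again without overlap. Over naive cells it rose by 1.29 ± 0.19 in TLR (edgeR adjusted p = 0.000230) and 0.86 ± 0.17 in CpG (edgeR adjusted p = 0.00281). Cox8a rose over naive cells by 0.73 ± 0.12 in TLR (edgeR adjusted p = 0.000499) and 0.52 ± 0.11 in CpG (edgeR adjusted p = 0.00341), while Cox8b had a count in 1 naive library alone and Cox8c and Cox7b2 had none.

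Cox7a2l and Cox6b2 were highest in CpG cells. Cox7a2l helps join complexes III and IV into supercomplexes, and C57BL/6 mice are known to carry a shortened form of the protein. It had 188 and 121 CPM in TLR, 373, 249.8 and 237 CPM in CpG and 124, 92.97 and 113 CPM in naive libraries. CpG libraries stood above both other groups, which overlapped. The fitted log2 change was -0.89 ± 0.25 for TLR against CpG (edgeR adjusted p = 0.0169, and 0.142 with TLR replicate 2 left out) and 1.38 ± 0.22 for CpG against naive (edgeR adjusted p = 0.000766). Cox6b2, known as the testis form of subunit 6b, had 1.36 and 2.12 CPM in TLR, 5.61, 5.18 and 4.97 CPM in CpG and 1.46, 1.25 and 1.36 CPM in naive libraries. Its CpG libraries too stood above both other groups, which overlapped. In log2 units the difference was -1.59 ± 0.33 for TLR against CpG (edgeR adjusted p = 0.00379) and 1.95 ± 0.29 for CpG against naive (edgeR adjusted p = 0.000517).

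The widely used Cox6b1 had 203 and 186 CPM in TLR, 180.2, 146 and 102 CPM in CpG and 103, 90.8 and 88.6 CPM in naive libraries. Over naive cells it rose by 1.05 ± 0.20 in TLR (edgeR adjusted p = 0.00132) and 0.60 ± 0.18 in CpG (edgeR adjusted p = 0.0227, and 0.0535 to 0.0765 with one of CpG replicates 1 and 2 and naive replicates 2 and 3 left out). Per kilobase of merged exons, Cox6b2 averaged 1.57 CPM in TLR, 4.74 CPM in CpG and 1.22 CPM in naive cells, against 275, 202 and 133 CPM for Cox6b1 in the same groups. Cox6a2, the heart and muscle form of subunit 6a, had 5.66 and 2.32 CPM in TLR, 4.90, 0.48 and 29.04 CPM in CpG and 3.02, 0.90 and 0.99 CPM in naive libraries. CpG replicate 3 was the highest of all libraries and CpG replicate 2 the lowest, and no comparison was called. For CpG against naive the edgeR adjusted p was 0.0618, and 0.00870 without CpG replicate 2. Cox6a2 shares exon bases with Itgad on the opposite strand. Cox6a1, the widely used form, had 116 and 103 CPM in TLR, 99.5, 93.1 and 74.9 CPM in CpG and 102, 86.4 and 91.1 CPM in naive libraries and was not called.

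Cox7a1, the muscle form of subunit 7a, had 1.42 and 1.29 CPM in TLR, 0.97, 4.38 and 0.55 CPM in CpG and 0.57, 0.70 and 0.31 CPM in naive libraries, with CpG replicate 2 alone above the rest, and was not called. Cox7a2 had 104 and 87.3 CPM in TLR, 80.8, 82.7 and 52.7 CPM in CpG and 50.9, 48.5 and 45.8 CPM in naive libraries. Over naive cells it rose by 0.98 ± 0.18 in TLR (edgeR adjusted p = 0.00123) and 0.57 ± 0.17 in CpG (edgeR adjusted p = 0.0199, and 0.0539 to 0.0697 with one of CpG replicates 1 and 2 and naive replicates 2 and 3 left out). Cox7c had 15.7 and 22.1 CPM in TLR, 15.2, 12.7 and 9.61 CPM in CpG and 18.5, 16.2 and 21.4 CPM in naive libraries, with all CpG libraries below the other groups. Its log2 change for CpG against naive was -0.58 ± 0.21 (edgeR adjusted p = 0.0470, and 0.0552 to 0.154 with one of CpG replicates 2 and 3 and naive replicates 1, 2 and 3 left out). Cox7c has 1 close copy elsewhere (as defined below), and reads shared with it are not in these values, which are therefore uncertain. Ndufa4, named for complex I and now placed in complex IV, had 142 and 117 CPM in TLR, 117, 88.7 and 67.7 CPM in CpG and 80.01, 70.1 and 79.1 CPM in naive libraries. It rose by 0.76 ± 0.20 in TLR over naive cells (edgeR adjusted p = 0.00757, and 0.0663 with TLR replicate 1 left out), and its relative Ndufa4l2 had at most 0.258 CPM.

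Complex V, the ATP synthase, had 17 tested genes, of which 11 rose and 0 fell in TLR against naive, 9 rose and 1 fell in CpG against naive, and 5 rose and 0 fell in TLR against CpG. The shares that rose were 64.7%, 52.9% and 29.4%, beside 31.6%, 23.5% and 19.0% of all tested genes. Atp5b, the catalytic beta subunit, had 1710 and 1845 CPM in TLR, 912, 1049 and 999.9 CPM in CpG and 674, 791 and 783 CPM in naive libraries. The groups did not overlap. The gene had a log2 change of 1.25 ± 0.13 for TLR against naive (edgeR adjusted p = 3.28e-05), 0.85 ± 0.13 for TLR against CpG (edgeR adjusted p = 0.000855) and 0.40 ± 0.12 for CpG against naive (edgeR adjusted p = 0.0233, and 0.0516 to 0.0922 with one of CpG replicates 2 and 3 and naive replicates 1, 2 and 3 left out). Atp5a1, the alpha subunit that alternates with beta in the catalytic head, had 1184 and 1297 CPM in TLR, 844, 1009 and 957 CPM in CpG and 637, 696 and 683 CPM in naive libraries, again without overlap. The test gave a log2 change of 0.88 ± 0.13 for TLR against naive (edgeR adjusted p = 0.000257), 0.41 ± 0.13 for TLR against CpG (edgeR adjusted p = 0.0332, and 0.0536 to 0.179 with one of TLR replicates 1 and 2, CpG replicate 3 and naive replicates 2 and 3 left out) and 0.48 ± 0.12 for CpG against naive (edgeR adjusted p = 0.00858).

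The stalk subunits of complex V differed among themselves. Atp5c1, the gamma subunit of the rotor, had 202 and 219 CPM in TLR, 179, 234 and 186 CPM in CpG and 136, 133 and 136 CPM in naive libraries, so that TLR and CpG overlapped above naive. Over naive cells it rose by 0.64 ± 0.13 in TLR (edgeR adjusted p = 0.00211) and 0.56 ± 0.12 in CpG (edgeR adjusted p = 0.00403). Atp5e, the epsilon subunit, had 198 and 146 CPM in TLR, 205, 154 and 97.8 CPM in CpG and 172, 114 and 129 CPM in naive libraries, and all groups overlapped with no call. Atp5d, the delta subunit, rose over naive cells by 0.78 ± 0.20 in TLR (edgeR adjusted p = 0.00693, and 0.0657 with TLR replicate 1 left out) and 0.50 ± 0.18 in CpG (edgeR adjusted p = 0.0449, and 0.0567 to 0.144 with one of CpG replicates 1 and 2 and naive replicates 1, 2 and 3 left out). Atp5o, which links the head to the outer stalk, had 132 and 129 CPM in TLR, 105, 100.5 and 76.03 CPM in CpG and 71.8, 69.1 and 71.8 CPM in naive libraries. It rose by 0.88 ± 0.14 in TLR over naive (edgeR adjusted p = 0.000414), by 0.47 ± 0.14 in TLR over CpG (edgeR adjusted p = 0.0228, and 0.0879 to 0.108 with one of TLR replicates 1 and 2 left out) and by 0.40 ± 0.13 in CpG over naive cells (edgeR adjusted p = 0.0260, and 0.0576 to 0.0886 with one of CpG replicates 1 and 2 and naive replicates 1, 2 and 3 left out).

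The membrane ring of complex V is built from one protein made by 3 genes. Atp5g3 had 354 and 347 CPM in TLR, 229, 236 and 175 CPM in CpG and 169.8, 154 and 161 CPM in naive libraries, with no overlap between groups. Its log2 change was 1.12 ± 0.14 for TLR against naive (edgeR adjusted p = 9.73e-05), 0.72 ± 0.14 for TLR against CpG (edgeR adjusted p = 0.00316) and 0.40 ± 0.13 for CpG against naive (edgeR adjusted p = 0.0282, and 0.05 to 0.105 with one of CpG replicates 1 and 2 and naive replicates 1, 2 and 3 left out). Atp5g1 ran from 2.00 to 4.64 CPM and Atp5g2 from 0.48 to 1.53 CPM over all libraries, with no call. Per kilobase of merged exons, Atp5g3 averaged 161 CPM in TLR, 97.9 CPM in CpG and 74.0 CPM in naive cells, against 0.846, 0.658 and 0.462 CPM for Atp5g1. However, Atp5g1 had 1 close copy elsewhere in the genome (as defined below) and Atp5g2 had 2, while Atp5g3 had 0. Reads shared with copies are not in these counts, so the levels of Atp5g1 and Atp5g2 are uncertain. How much the copies lowered them was not tested. Atp5k, subunit e of the membrane part, had 61.5 and 65.05 CPM in TLR, 52.5, 43.97 and 19.98 CPM in CpG and 31.7, 33.1 and 30.4 CPM in naive libraries. It rose by 1.00 ± 0.30 in TLR over naive cells (edgeR adjusted p = 0.0169, and 0.0540 to 0.0731 with one of TLR replicates 1 and 2 left out). Atpif1, which inhibits the enzyme and is not a subunit, had 19.99 and 23.9 CPM in TLR, 32.6, 40.3 and 32.6 CPM in CpG and 21.6, 20.8 and 22.2 CPM in naive libraries. The log2 change was -0.68 ± 0.15 for TLR against CpG (edgeR adjusted p = 0.00667, and 0.0722 with TLR replicate 1 left out) and 0.71 ± 0.14 for CpG against naive (edgeR adjusted p = 0.00240).

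Some members share sequence with other loci, and reads aligned to several places are kept apart from the gene counts. Of the 79 tested genes, 21 had a close copy elsewhere (at least 95% identity over at least 200 bases) and 28 shared exon bases with another gene. Among the 39 with neither, 24 rose and 0 fell in TLR against naive, 20 rose and 0 fell in CpG against naive, and 11 rose and 2 fell in TLR against CpG. The shares that rose were 61.5%, 51.3% and 28.2%, beside 31.6%, 23.5% and 19.0% of all tested genes. Exon overlap was largest for Ndufb6 (39% of its exon bases, with Smim27) and Atp5o (35.6%), in both cases with genes on the opposite strand. As counting ignored strand, reads there cannot be told apart, which limits the values of these genes. Atp5l, subunit g of the synthase, had 9 close copies and the lowest level per kilobase of merged exons of the tested members in every group. Per kilobase of the principal transcript, Atp5l ranked 79 of the 79 in TLR and CpG cells but 76 in naive cells. To show how alike the copies are, 75 coding bases of Atp5l (GENCODE M21, build GRCm38) follow with those of 2 copies, with capitals where a copy differs.
Atp5l, chromosome 9: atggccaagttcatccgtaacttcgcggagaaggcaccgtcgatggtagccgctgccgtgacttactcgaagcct
Atp5l-ps1, chromosome 7: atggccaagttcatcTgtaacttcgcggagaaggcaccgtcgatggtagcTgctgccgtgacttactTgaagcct
Gm10221, chromosome 5: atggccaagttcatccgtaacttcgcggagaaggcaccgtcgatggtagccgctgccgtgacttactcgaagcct
The Gm10221 stretch was identical and the Atp5l-ps1 stretch differed at 3 bases, and over their whole length 100% and 98.4% of bases matched Atp5l. Atp5l had 0.40 and 0.46 CPM in TLR, 0.19, 0.43 and 0.33 CPM in CpG and 1.25, 0.70 and 0.84 CPM in naive libraries, and all naive libraries lay above the rest. The log2 change for CpG against naive was -1.52 ± 0.48 (edgeR adjusted p = 0.0271, and 0.0521 to 0.0730 with one of CpG replicates 1 and 3 and naive replicates 1 and 3 left out), and this value is uncertain because reads shared with the copies are not in it. Cox7a2l, Ndufa12 and Atp5o each had 1 copy, whose own level was at most 2.19, 0.361 and 1.55 CPM. Cox7c, like Atp5l called lower in CpG than in naive cells, also had 1 copy, at most 0.208 CPM. Among the 58 tested members without a close copy, 0 fell in that comparison, beside 21.9% of all tested genes.

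Levels can be compared between members per kilobase of merged exons. In TLR cells the order was Atp5b at 419.5 CPM, Atp5a1 at 396 CPM, Cox6b1 at 275 CPM and Cox4i1 at 222 CPM. In CpG cells it was Atp5a1 at 299 CPM, Cox4i1 at 264 CPM, Atp5b at 233 CPM and Cox6b1 at 202 CPM. In naive cells it was Atp5a1 at 214 CPM, Atp5b at 177 CPM, Cox4i1 at 156 CPM and Cox6b1 at 133 CPM. The order depended on the length used. Per kilobase of the principal transcript, a choice made after seeing the data, Atp5b led in TLR cells at 928 CPM and in naive cells at 391 CPM, and Cox4i1 led in CpG cells at 534 CPM. Neighbours in these orders were not tested against each other.

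Genes that build or feed the complexes were read from lists by function, whose counts stand beside the shares of all tested genes: 31.6% higher and 29.7% lower in TLR against naive, 23.5% and 21.9% in CpG against naive, and 19.0% and 19.8% in TLR against CpG. Of 47 tested assembly factors, which help build the complexes without staying in them, 28 rose and 2 fell in TLR against naive, 16 rose and 0 fell in CpG against naive, and 18 rose and 2 fell in TLR against CpG. Ndufaf4, an assembly factor of complex I, had 93.02 and 88.4 CPM in TLR, 37.5, 32.7 and 36.5 CPM in CpG and 31.4, 32.5 and 32.8 CPM in naive libraries. It rose by 1.35 ± 0.11 in TLR over CpG cells (edgeR adjusted p = 2.21e-05). Surf1, an assembly factor of complex IV, had 24.7 and 18.4 CPM in TLR, 49.1, 43.4 and 35.8 CPM in CpG and 48.6, 46.98 and 45.05 CPM in naive libraries. On the log2 scale the difference was -0.99 ± 0.17 for TLR against CpG (edgeR adjusted p = 0.00169). Sdhaf2, which helps attach the flavin to Sdha, had 90.02 and 83.95 CPM in TLR, 158, 130.1 and 140.0 CPM in CpG and 88.6, 85.8 and 92.2 CPM in naive libraries. The fitted log2 change was -0.72 ± 0.12 for TLR against CpG (edgeR adjusted p = 0.00115) and 0.69 ± 0.10 for CpG against naive (edgeR adjusted p = 0.000626). Thus Ndufaf4 was highest in TLR, Sdhaf2 in CpG, and Surf1 was lowest in TLR libraries. Of 12 genes of iron-sulfur cluster assembly, 9 rose in TLR against naive, 5 in CpG against naive and 6 in TLR against CpG, and 0 fell in any. Nfs1, the cysteine desulfurase that supplies the sulfur, rose by 0.73 ± 0.10 in TLR over CpG (edgeR adjusted p = 0.000455) and by 0.52 ± 0.09 in CpG over naive cells (edgeR adjusted p = 0.00177).

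Of 13 genes of coenzyme Q synthesis, 6 rose and 1 fell in TLR against naive, 5 rose and 3 fell in CpG against naive, and 6 rose and 1 fell in TLR against CpG. The share that fell in CpG against naive, 23.1%, was near that of all tested genes. Coq3, a methyltransferase of the pathway, rose by 1.20 ± 0.17 in CpG over naive cells (edgeR adjusted p = 0.000369), while Coq2, which joins the ring to its tail, had a log2 change of -0.56 ± 0.12 in the same comparison (edgeR adjusted p = 0.00423). Of 17 genes of pyruvate dehydrogenase and the citric acid cycle, 10 rose and 0 fell in TLR against naive, 5 rose and 1 fell in CpG against naive, and 6 rose and 1 fell in TLR against CpG. Mdh2, the mitochondrial malate dehydrogenase, had 519.6 and 482 CPM in TLR, 215, 220.1 and 202 CPM in CpG and 156, 159 and 151 CPM in naive libraries. It rose by 1.24 ± 0.11 in TLR over CpG cells (edgeR adjusted p = 2.86e-05). Suclg2, a subunit of succinyl-CoA ligase, was highest in CpG libraries. In log2 units the difference was -0.97 ± 0.17 for TLR against CpG (edgeR adjusted p = 0.00160) and 2.25 ± 0.15 for CpG against naive (edgeR adjusted p = 7.19e-06). Of 13 carriers and other electron donors, 10 rose and 0 fell in TLR against naive, 8 rose and 2 fell in CpG against naive, and 7 rose and 1 fell in TLR against CpG. Slc25a5, which exchanges ADP for ATP across the inner membrane, had 362 and 435 CPM in TLR, 184, 220.0 and 169 CPM in CpG and 102, 111 and 112 CPM in naive libraries. It rose by 1.88 ± 0.14 in TLR over naive cells (edgeR adjusted p = 3.86e-06).

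**Figure D5:**
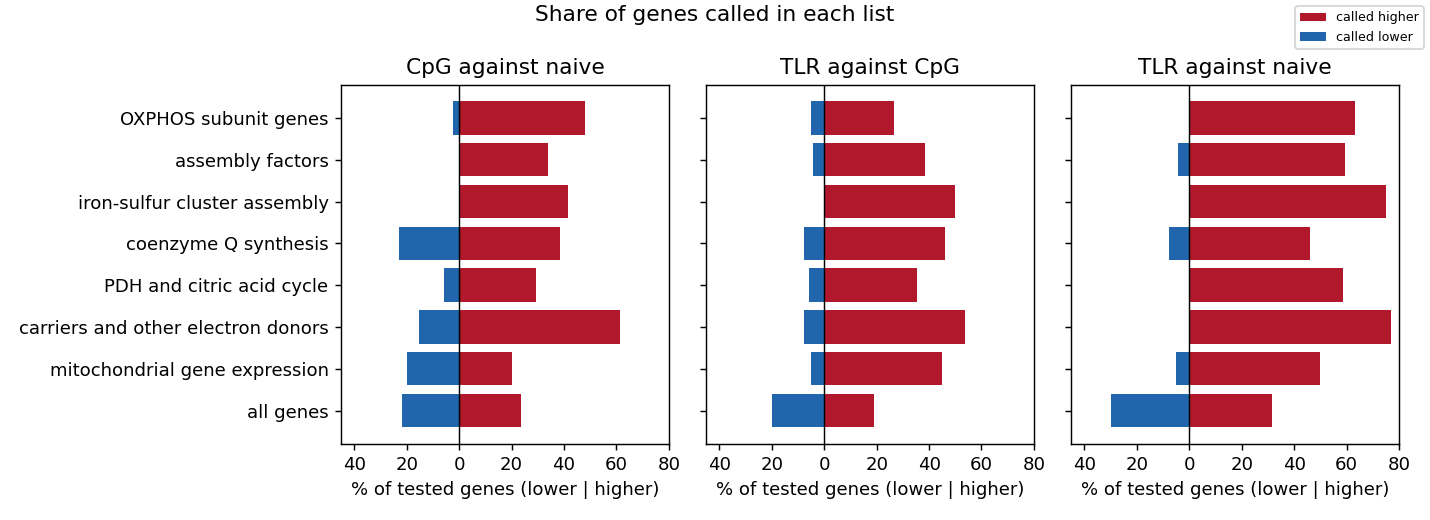
Share of tested genes (percent) called higher and lower in each list and among all genes, in the 3 comparisons. Calls among all genes are nearly even in both directions, while the subunit genes have 63.3%, 48.1% and 26.6% called higher in TLR against naive, CpG against naive and TLR against CpG.

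Of 20 genes of mitochondrial gene expression and its regulators, 10 rose and 1 fell in TLR against naive, 4 rose and 4 fell in CpG against naive, and 9 rose and 1 fell in TLR against CpG. The shares called in each direction in CpG against naive, 4 of 20 genes, were near those of all tested genes. Ppargc1a, a coactivator of mitochondrial genes, had 0.17 and 0.15 CPM in TLR, 0.90, 2.40 and 1.04 CPM in CpG and 4.17, 4.91 and 4.38 CPM in naive libraries. The gene had a log2 change of -3.12 ± 0.60 for TLR against CpG (edgeR adjusted p = 0.00266) and -1.62 ± 0.40 for CpG against naive (edgeR adjusted p = 0.00829), so that it fell in both. Its relative Ppargc1b had 20.2 and 13.01 CPM in TLR, 3.81, 2.73 and 3.22 CPM in CpG and 8.91, 7.56 and 7.83 CPM in naive libraries, lowest in CpG libraries. The test gave a log2 change of 2.35 ± 0.26 for TLR against CpG (edgeR adjusted p = 0.000101) and -1.32 ± 0.24 for CpG against naive (edgeR adjusted p = 0.00164). Myc, a transcription factor of growth genes, had 392 and 327 CPM in TLR, 98.03, 137 and 137 CPM in CpG and 76.9, 91.2 and 87.2 CPM in naive libraries. It rose by 1.54 ± 0.17 in TLR over CpG cells (edgeR adjusted p = 9.03e-05). Tfam, which packages and helps transcribe mitochondrial DNA, had 109 and 123 CPM in TLR, 94.5, 119 and 109.6 CPM in CpG and 135, 135 and 142 CPM in naive libraries. Its log2 change was -0.35 ± 0.11 for CpG against naive (edgeR adjusted p = 0.0284, and 0.05 to 0.0920 with one of CpG replicates 1 and 3 and naive replicates 2 and 3 left out). Nrf1, whose letters were searched in the promoters, was called higher in TLR than in CpG cells, by 0.36 ± 0.10 (edgeR adjusted p = 0.0186, and 0.0509 to 0.135 with one of TLR replicates 1 and 2 and CpG replicate 2 left out). Gabpa, the DNA-binding part of GABP, was called higher in TLR than in naive cells, by 0.42 ± 0.17 (edgeR adjusted p = 0.0484, and 0.0588 to 0.148 with one of TLR replicates 1 and 2 and naive replicates 1, 2 and 3 left out).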

How the data were processed

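Raw read counts per gene, as deposited by the authors for each of the 8 libraries, were used. The submitters' processing notes name the tools STAR, HTSeq and edgeR and the genome build mm9; versions and settings are not given in the sources used here. Per the labels' protocols, polyadenylated RNA was made into strand-specific libraries, and per the names of the deposited files reads were counted without regard to strand. Lines that name no gene (no gene 7.84% to 15.0%, ambiguous 1.29% to 2.15%, and reads aligned to several places) were left out.

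Symbols came from GENCODE M21 (GRCm38) and matched 32860 of 37583 identifiers. No coordinates of mm9 are printed. Counts were tested with edgeR 4.0.16 (quasi-likelihood, filterByExpr, TMM, prior count 0.125) in R 4.3.3 over all 8 libraries, with Benjamini-Hochberg adjustment over 13964 genes. SE is the log2 change divided by the root of F. Close copies were found with BLAST 2.17.0. The fit was tested on simulated counts. DESeq2 1.42.0, other scalings and filters, a replicate term, a prefix term and leaving out each library were alternatives. Members and lists were chosen with earlier results of these data known. Genes were named by rule: in each complex and comparison the 3 called members with the largest changes at a mean of at least 8 CPM, all Sdh genes, isoform pairs, core and catalytic subunits, and the called genes of each list with the smallest p. Others, among them Ndufs3, Ndufs8, Ndufa8, Atp5e, Atp5g1, Atp5g2 and Atp5l, were chosen after their values were seen. Some genes are counted in the totals but not reported by name here.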

Additional observations from a re-analysis of the deposited data

How the results depend on the processing

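The median log2 change of the tested subunit genes, 79 in the main fit and 77 to 82 in the alternatives, ran from 0.66 to 0.78 for TLR against naive. It ran from 0.35 to 0.55 for CpG against naive and from 0.22 to 0.39 for TLR against CpG. Under every alternative it moved by less than 0.16, the SD within groups of the libraries' median log2 levels of the members. The higher counts of TLR against naive and CpG against naive stayed within 1.5 times of 50 and 38. The count higher in TLR than in CpG was 11 with only these 2 groups fitted, and it ranged from 7 to 29 with 1 library left out, where the count lower ranged from 1 to 9. The count lower in CpG than in naive cells was 1 under DESeq2, without a filter, at a mean of at least 1 CPM, with a prefix term and in the libraries of the common prefix alone, and 0 to 2 with 1 library left out. The count lower in TLR than in naive cells was 1 under relative log expression factors, DESeq2, a mean of at least 1 CPM, a prefix term and the common prefix alone, 3 with only these 2 groups fitted, and 0 to 1 with 1 library left out. With fewer libraries these fits have less information; the cause of the other shifts was not tested. With a lone TLR library in a fit, it is assumed to vary like the other groups.

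The correlations of same-numbered deviations from the group means ran from 0.00359 to 0.325. All 7 were above 0 but only 5 of them above 0.1, and the numbers were not taken as pairs, although replicate 1 of each group shares a library prefix. Different-numbered values ran from -0.325 to 0.147. The deviations of the 2 TLR libraries mirror each other, so these values are not independent. With the replicate number as a block, 49 members were higher and 1 lower in TLR against naive, 43 and 1 in CpG against naive, and 18 and 5 in TLR against CpG. Of single calls of members, 1839 values over all alternatives kept their call and 230 lost it, and 0 changed sign. Another 99 values with no call gained one, 15 of them with the prefix as a term, where 54 members were higher in TLR than in naive, 41 in CpG than in naive and 27 in TLR than in CpG. Atp5l, at 0.19 to 1.25 CPM, rests on few counts per library.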
